A study of Mus musculus with 11 samples.

Results

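Transcript levels of 8 genes were followed across the 11 thymocyte samples of the study: the E protein genes Tcf3, Tcf4 and Tcf12, the Id genes Id1, Id2 and Id3, and the Ikaros family genes Ikzf1 and Ikzf3. They were chosen by name, as a list of regulators of T cell development, and are 8 of the 54418 genes in the table. RNA came from thymocytes (T cells that are still developing in the thymus) of 4 wild-type (wt) mice, 4 Zmat3 -/- mice and 3 mice that lacked Zmat3, Puma and p21 together (TKO). Puma is encoded by Bbc3 and p21 by Cdkn1a. ZMAT3 is an RNA-binding zinc finger protein, PUMA a killer protein of the BCL-2 family and p21 an inhibitor of cyclin-dependent kinases, and all 3 are made from target genes of the tumour suppressor TRP53. All mice were aged 8 to 12 weeks and of the C57BL/6-WEHI background. The mutant mice lack these genes in every cell of the body, the thymic stroma included. The labels give no sex, litter or sequencing day, and that each sample is 1 mouse was taken from the study's text.

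E proteins are helix-loop-helix transcription factors that bind DNA as dimers at the short sequence called the E-box and drive V(D)J recombination, pre-TCR and CD4 expression in developing T cells. Id proteins have the same dimerisation domain but no DNA-binding part, so that they hold E proteins in dimers that cannot bind DNA, and signals from the TCR and from BMP receptors raise Id genes through EGR and SMAD factors. Ikaros (Ikzf1) and Aiolos (Ikzf3) are zinc finger proteins that bind DNA as dimers, recruit the NuRD and Sin3 chromatin complexes and restrain Notch target genes in thymocytes.

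The libraries held 17669715 to 80207003 counts (median 33295078), with TKO mouse 2 the smallest and TKO mouse 3 the largest. Levels are given as CPM, counts scaled to a common library size with edgeR's TMM factors. Zmat3 was at 10.1, 12.3, 27.4 and 27.9 CPM in wt mice 1 to 4, at 5.41 to 6.98 CPM in the Zmat3 -/- mice and at 7.44 to 8.27 CPM in the TKO mice, so it was lower in every mutant mouse but still counted. Bbc3 was at 17.2 to 20.1 CPM in wt, 15.5 to 20.2 CPM in Zmat3 -/- and 11.8 to 16.0 CPM in TKO mice, with no overlap between TKO and wt. Cdkn1a was low, at 3.61 to 10.4 CPM in wt, 4.85 to 8.78 CPM in Zmat3 -/- and 2.24 to 3.62 CPM in TKO mice, and its TKO and wt ranges touched. None of these 3 genes passed an adjusted p of 0.05 in the comparison of TKO with wt mice (log2FC −1.28, −0.48 and −1.09 in the order above), and counts over a whole gene do not show whether its deleted part was transcribed, so the TKO label was taken as given. Wt mice 1 and 2 stood apart from wt mice 3 and 4 in most of the genes described here, and the values that compare the 8 genes with wt are also given without each of these pairs. Xist was high (514 to 1526 CPM) in 5 mice, which were TKO mouse 1 and mice 1 and 2 of the other genotypes, and low (0.727 to 2.65 CPM) in the remaining 6. Mitochondrial transcripts took 4.25% to 6.31% of the counts in wt mice, 6.54% to 14.6% in Zmat3 -/- mice and 3.86% to 9.29% in TKO mice, so the wt and Zmat3 -/- ranges did not overlap. All 10 thymocyte markers (Thy1, Lck, Cd3e, Rag1 and others) exceeded 1 CPM in every mouse, and their sum was 13459 to 15178 CPM in wt and 12458 to 15184 CPM in mutant mice. Without Rag1, the most abundant, the sum was 11826, 11338, 9778 and 9196 CPM in wt mice 1 to 4 and 8545 to 9626 CPM in mutant mice. Wt mice 1 and 2 then lay above every other mouse. Within the list the markers moved apart. Cd3e was at 454 to 571 CPM in wt and 315 to 409 CPM in mutant mice and Cd8a at 1889 to 2077 and 1535 to 1813 CPM, both without overlap. Cd4 overlapped (1021 to 1099 and 987 to 1309 CPM), and Rag1 ran from 1633 to 5557 CPM. Lower without overlap were 2 of the 10 markers in TKO and 3 in Zmat3 -/- against wt mice, beside 7.49% and 7.21% of all genes tested. None of the 10 passed an adjusted p of 0.05 from edgeR in either comparison. In bulk samples, fewer cells of a type and less RNA per cell cannot be told apart.

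The genes lie on separate chromosomes except for the Ikaros pair, and the place of Tcf4 is given with its values. In GRCm38 with GENCODE M21, Tcf3 is on chromosome 10 (80409514 to 80433647, minus strand) and Tcf12 on chromosome 9 (71842688 to 72111871, minus strand). Id1 is on chromosome 2 (152736251 to 152737410, plus strand), Id2 on chromosome 12 (25093799 to 25097140, minus strand) and Id3 on chromosome 4 (136143497 to 136145755, plus strand). Ikzf1 (11685003 to 11772926, plus strand) and Ikzf3 (98464902 to 98546031, minus strand) are both on chromosome 11. No exon of another annotated gene overlapped an exon of these genes on either strand. Of the 31-base words in their transcripts, 1.60% of those of Id2 also occurred in the pseudogene Gm6175, 0.650% of those of Tcf12 and 0.544% of those of Tcf4 occurred elsewhere, and none did for the other 5 genes.

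The DNA just upstream of 3 of the genes is shown because the E-box is the sequence that ties the families together: E proteins bind it and Id proteins keep them from it. Upstream sequence from RefSeq (GRCm38.p6) was at hand for 5 of the 8 genes (Tcf3, Tcf12, Id2, Id3 and Ikzf1), in windows of 250 bases before a transcript start. Tcf3, Tcf12 and Id2 held E-boxes in stretches of these windows that lie outside every annotated exon. For each gene 1 stretch with 1 E-box is printed below 5′ to 3′ in the direction of transcription with the E-box (CANNTG, which reads alike on both strands) in capitals. The first stretch is chr10:80433648-80433885 (minus strand, 238 bases), directly upstream of the annotated Tcf3 gene. The second is chr9:72111872-72112069 (minus strand, 198 bases), directly upstream of Tcf12, and the third is chr12:25096254-25096342 (minus strand, 89 bases), between annotated exons of Id2 and upstream of its RefSeq start. Tcf12 has a further start, and the stretch before it (chr9:72111203-72111451, minus strand, 249 bases), which is not printed, also held 1 E-box.
Tcf3: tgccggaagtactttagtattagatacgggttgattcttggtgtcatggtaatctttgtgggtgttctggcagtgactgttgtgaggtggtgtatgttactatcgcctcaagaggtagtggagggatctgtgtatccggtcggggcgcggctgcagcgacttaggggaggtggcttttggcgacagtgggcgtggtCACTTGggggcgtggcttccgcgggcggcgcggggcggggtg
Tcf12: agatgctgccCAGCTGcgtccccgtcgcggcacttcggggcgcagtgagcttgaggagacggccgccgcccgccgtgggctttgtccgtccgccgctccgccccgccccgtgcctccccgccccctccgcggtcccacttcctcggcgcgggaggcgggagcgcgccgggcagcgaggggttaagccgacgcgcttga
Id2: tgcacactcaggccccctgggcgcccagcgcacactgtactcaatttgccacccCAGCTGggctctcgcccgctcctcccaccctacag
An E-box is common: 66.2% of the 32851 RefSeq promoter windows held at least 1. The Ikaros core (GGGAA, or TTCCC on the other strand), held by 56.2% of all windows, was absent from these 3 stretches and occurred at 2 places in the window before the second Ikzf1 start (chr11:11689927-11690176, plus strand).

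Ikzf1 was the most abundant of the 8 transcripts per length and Id1 and Tcf4 the least. Levels of different genes were compared as CPM per kilobase of the gene's merged exons, averaged over all 11 mice. Ikzf1 was at 126 ± 20.8 CPM per kb (SD, n = 11), followed by Id3 at 64.7 ± 19.7 and Tcf3 at 54.4 ± 4.30. Tcf12 was at 29.1 ± 8.19, Ikzf3 at 28.3 ± 11.4 and Id2 at 26.9 ± 6.88 CPM per kb, and these 3 neighbours did not differ beyond their spread over mice. Id1 was at 2.98 ± 1.27 and Tcf4 at 1.74 ± 0.202 CPM per kb, again within their spread. The lowest Tcf3 level (47.1 CPM per kb) was above the highest Tcf12 level (38.4), and the lowest Id2 level (14.1) above the highest Id1 level (4.70), whereas the other neighbours overlapped. Tcf12 and Tcf4 have long merged exons (15.529 and 27.382 kb), so their levels depend on the length used: with the longest annotated transcript in its place, Tcf12 was at 71.8 and Tcf4 at 5.55 CPM per kb, Tcf4 then stood above Id1, and the ranges of Tcf12 and Tcf3 overlapped. Among E proteins, thymocyte RNA thus held mostly Tcf3 and Tcf12, and among Id genes mostly Id3 and Id2. Without wt mice 1 and 2, or without wt mice 3 and 4, every mean moved by less than its SD, and the order by merged exons changed only among Tcf12, Ikzf3 and Id2.

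Tcf3, which encodes the E proteins E12 and E47, varied least. It was at 227, 204, 190.1 and 197 CPM in wt mice 1 to 4, at 239, 224, 218 and 218 CPM in Zmat3 -/- mice 1 to 4, and at 218, 234 and 247 CPM in TKO mice 1 to 3. The highest wt mouse was 1.19 times the lowest. Wt mice 2, 3 and 4 lay below every mutant mouse, and wt mouse 1 lay among the mutants.

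Tcf12, which encodes HEB, the E protein partner of E47 in thymocytes, had a wide spread in wt. It was at 192, 234, 484 and 443 CPM in wt mice 1 to 4 (338 ± 147, SD, n = 4). It was at 494, 501, 545 and 556 CPM in Zmat3 -/- mice 1 to 4 (524 ± 31.1, SD, n = 4) and at 456, 475 and 597 CPM in TKO mice 1 to 3 (509 ± 76.3, SD, n = 3). Wt mice 1 and 2 were far below all other mice, wt mice 3 and 4 lay just under the lowest Zmat3 -/- mouse, and TKO mice 1 and 2 lay between wt mice 3 and 4. The highest wt mouse was 2.53 times the lowest, and the highest mutant mouse 1.31 times the lowest.

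Tcf4, which encodes E2-2, the E protein of plasmacytoid dendritic cells, lies on chromosome 18 of GRCm38 (69343356 to 69689079, plus strand) and was low and even. It was at 39.5, 35.8, 50.6 and 50.9 CPM in wt mice 1 to 4, at 50.6, 50.8, 48.4 and 49.0 CPM in the Zmat3 -/- mice, and at 44.9, 54.7 and 48.3 CPM in the TKO mice. Only wt mice 1 and 2 lay outside the range of the mutant mice, on the low side.

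Id1 was near the floor of what was tested. Its counts were 166, 126, 23 and 24 in wt mice 1 to 4 and 93 to 238 in the mutant mice, that is 5.14, 3.14, 0.978 and 0.963 CPM in wt, 3.05, 4.02, 4.34 and 4.32 CPM in Zmat3 -/- and 3.80, 5.45 and 2.88 CPM in TKO mice. Wt mice 3 and 4 were below every other mouse, and wt mice 1 and 2 lay in the range of the mutants. The highest wt mouse was 5.33 times the lowest.

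Id2, which is needed for innate lymphoid and effector T cells, followed the same order. It was at 82.0, 80.8, 34.3 and 39.8 CPM in wt mice 1 to 4 (59.2 ± 25.7, SD, n = 4), at 66.5, 62.8, 61.3 and 76.0 CPM in the Zmat3 -/- mice and at 80.2, 80.7 and 56.3 CPM in the TKO mice. All 7 mutant mice lay between the wt pairs, above mice 3 and 4 and below mice 1 and 2, although TKO mice 1 and 2 came close to the upper pair.

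Id3, the Id protein raised by TCR signals during selection, did so too. It was at 183, 142, 71.4 and 66.7 CPM in wt mice 1 to 4 (116 ± 56.4, SD, n = 4), at 113, 114, 106 and 159 CPM in the Zmat3 -/- mice and at 126, 105 and 88.8 CPM in the TKO mice. Wt mice 3 and 4 were again the lowest of all, wt mouse 1 was the highest, and Zmat3 -/- mouse 4 stood above its group.

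Ikzf1 was abundant in all mice. It was at 479, 552, 774 and 767 CPM in wt mice 1 to 4 (643 ± 150.3, SD, n = 4), at 721, 734, 799 and 782 CPM in the Zmat3 -/- mice and at 729, 725 and 927 CPM in the TKO mice. Wt mice 1 and 2 lay below every other mouse, and wt mice 3 and 4 lay within the range of the mutants.

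Ikzf3, whose protein Aiolos is made from the double-positive stage on, had the widest wt range of the 8 as a ratio of highest to lowest mouse. It was at 48.2, 77.5, 297 and 299.6 CPM in wt mice 1 to 4 (181 ± 136, SD, n = 4), at 257, 252, 339 and 336 CPM in the Zmat3 -/- mice and at 267, 213 and 335 CPM in the TKO mice. The highest wt mouse was 6.21 times the lowest, against 1.59 times among the mutants. Within the Ikaros pair, the count of Ikzf3 per count of Ikzf1 was 0.101 and 0.140 in wt mice 1 and 2 and 0.294 to 0.429 in the other 9 mice.

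**Figure D1:**
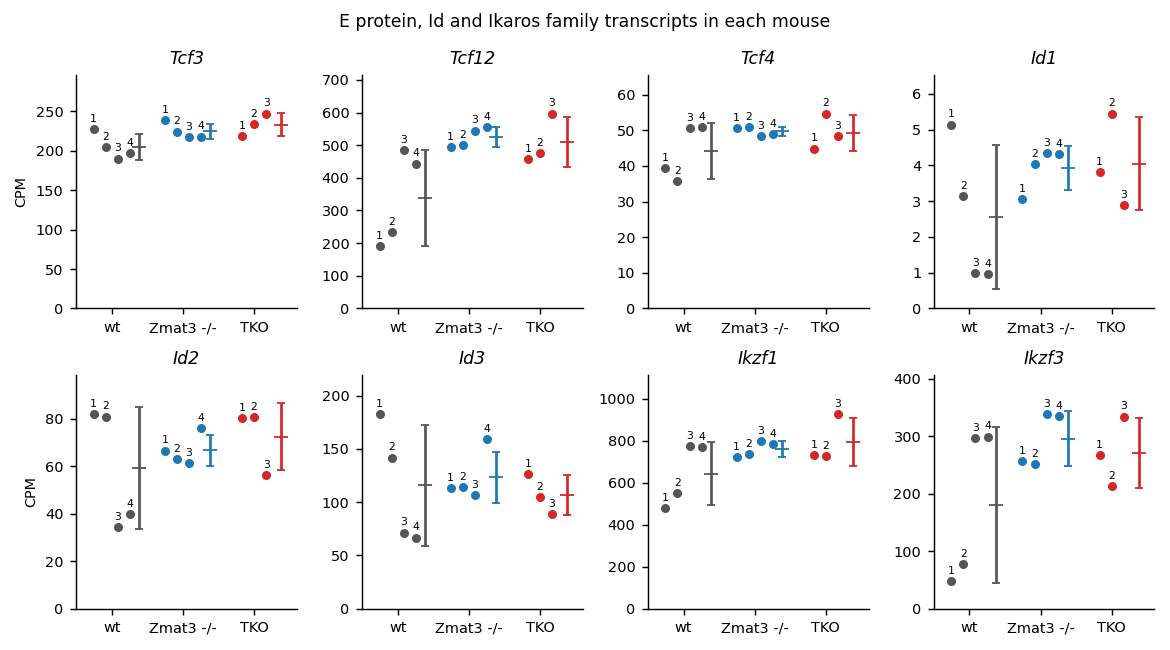
Level of each of the 8 genes (vertical axes, CPM from 0) in the 4 wt, 4 Zmat3 -/- and 3 TKO mice, 1 point per numbered mouse, with the group mean and SD as bars beside the points. Wt mice 1 and 2 are low for Tcf12, Tcf4, Ikzf1 and Ikzf3 and high for Id2 and Id3, while wt mice 3 and 4 are low for Id1, Id2 and Id3.

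None of the 8 genes was called differentially expressed in any of the 3 pairwise comparisons of genotypes. All 8 passed the filter on low counts in each comparison, and a call was an adjusted p under 0.05 from edgeR's quasi-likelihood test with Benjamini-Hochberg adjustment over all genes tested. In TKO against wt thymocytes 0 of 8 were called, where 0.294% of the 13260 genes tested were. In Zmat3 -/- against wt thymocytes 0 of 8 were called against 0.763% of 13494 genes, and in TKO against Zmat3 -/- thymocytes 0 of 8 against 0.221% of 13124 genes. At an unadjusted p under 0.05, 0 of 8 passed in each comparison, against 10.3%, 16.1% and 4.5% of all genes in the same order, and DESeq2 called 0 of 8 in each, against 2.87%, 8.04% and 0.556%.

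In TKO against wt thymocytes, 7 of the 8 fold changes were above 0, with a median log2FC of 0.30 against −0.04 over all genes tested. Id1 had the largest, 0.65 with a standard error (SE) of 0.615 (edgeR adjusted p = 0.697). Tcf12 followed at 0.59 (SE 0.341, edgeR adjusted p = 0.580) and Ikzf3 at 0.59 (SE 0.621, edgeR adjusted p = 0.721). The 95% confidence intervals were −0.78 to 2.07 for Id1, −0.20 to 1.38 for Tcf12 and −0.85 to 2.03 for Ikzf3, so neither no change nor a large one lay outside them. Ikzf1 (0.31), Id2 (0.29), Tcf3 (0.19), Tcf4 (0.16) and Id3 (−0.11) were nearer to 0. The TKO and wt ranges overlapped for all 8, while they did not for 13.9% of all genes tested, and the lowest p of the 8 in two-sided exact permutation tests of log2 CPM was 0.114, where 3 mice against 4 allow 0.0286.

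In Zmat3 -/- against wt thymocytes, all 8 fold changes were above 0, with a median log2FC of 0.21 against −0.03 over all genes tested. The share of mitochondrial counts given above also separated these groups, and its part in these values was not tested. Ikzf3 was at 0.72 (SE 0.553, edgeR adjusted p = 0.549), Tcf12 at 0.64 (SE 0.294, edgeR adjusted p = 0.335) and Id1 at 0.62. Tcf12 was the 1 gene whose ranges did not overlap, as all 4 Zmat3 -/- mice were above all 4 wt mice, which held for 7.01% of all genes tested in that direction and 14.2% in either. Its two-sided exact permutation p was 0.0286, the smallest that 4 mice against 4 allow, and its 95% confidence interval in edgeR was −0.04 to 1.32. Ikzf1 (0.25), Id2 (0.18), Tcf4 (0.18), Tcf3 (0.14) and Id3 (0.10) were smaller. Both comparisons with wt use the same 4 wt mice, so a direction seen in both is not seen independently.

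Between the mutant genotypes, the 8 genes lay close together. In TKO against Zmat3 -/- thymocytes the log2FC ran from −0.21 for Id3 to 0.11 for Id2, 4 above and 4 below 0, with adjusted p from edgeR of 0.983 to 1.00. The 95% confidence interval was −0.56 to 0.13 for Id3, −0.28 to 0.17 for Tcf12, −0.16 to 0.27 for Ikzf1 and −0.55 to 0.57 for Id1. A change of 1 on the log2 scale thus lay outside the interval of all 8 genes in this comparison, whereas in TKO against wt thymocytes it lay inside that of Id1, Id2, Tcf12 and Ikzf3. All 8 ranges overlapped, where 5.64% of all genes had ranges that did not, and the lowest exact permutation p was 0.400.

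**Figure D2:**
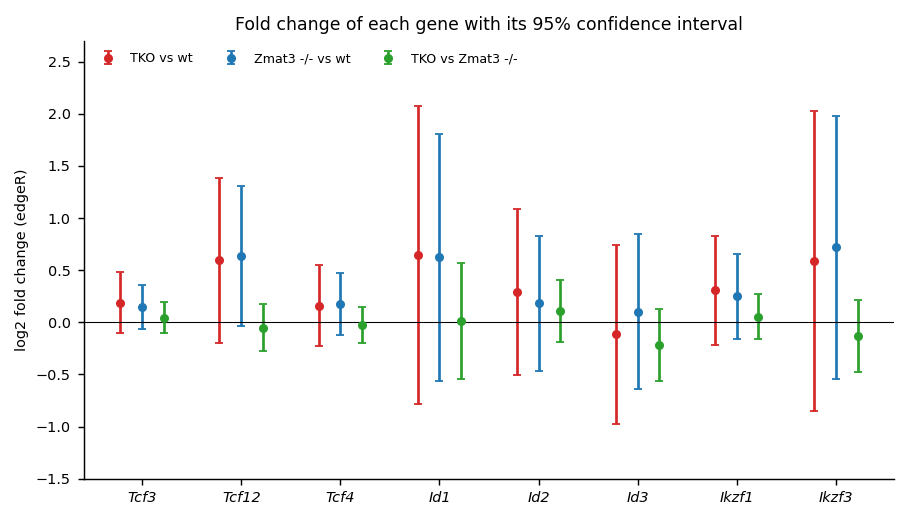
Log2 fold change of each gene from edgeR (vertical axis) with its 95% confidence interval, for TKO against wt (red), Zmat3 -/- against wt (blue) and TKO against Zmat3 -/- (green) thymocytes. The intervals of both comparisons with wt are wide and include 0 for all 8 genes, and those between the mutant genotypes are narrower and centred near 0.

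The comparisons with wt rested on which wt mice were used. The wt pairs were set apart after the data were seen, by values of genes that include these 8, so the 2 mice kept in each fit are alike by choice. What follows describes each pair, and its counts of genes past the threshold are no support for a difference between genotypes. With wt mice 1 and 2 left out, the log2FC in Zmat3 -/- against wt thymocytes was 2.01 for Id1, 0.85 for Id2, 0.83 for Id3 and 0.22 for Tcf3, and these 4 of 8 genes passed an adjusted p of 0.05 in edgeR, where 33% of all genes tested did. In TKO against wt thymocytes it was 2.04 for Id1, 0.96 for Id2 and 0.63 for Id3, and these 3 of 8 passed, where 8.15% of all genes did. The log2FC of Tcf12 (0.18 and 0.14), Tcf4 (−0.029 and −0.045), Ikzf1 (−0.021 and 0.042) and Ikzf3 (−0.011 and −0.13) was near 0 in Zmat3 -/- and TKO mice.

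With wt mice 3 and 4 left out instead, other genes stood out. In Zmat3 -/- against wt thymocytes the log2FC was 2.23 for Ikzf3, 1.30 for Tcf12, 0.56 for Ikzf1, 0.40 for Tcf4 and −0.29 for Id2, and these 5 of 8 genes passed, where 56.1% of all genes tested did. In TKO against wt thymocytes it was 2.12 for Ikzf3, 1.27 for Tcf12, 0.63 for Ikzf1, 0.40 for Tcf4 and −0.60 for Id3, and these 5 of 8 passed, where 43.6% of all genes did. The signs of the Id genes thus went with the wt pair. In both mutant genotypes each had a log2FC above 0 against wt mice 3 and 4 and below 0 against wt mice 1 and 2. Against wt mice 1 and 2, however, Id1 (−0.043 in TKO and −0.071 in Zmat3 -/- mice) and Id2 in TKO mice (−0.16) were within their SE of 0. Over all alternatives the adjusted p of Ikzf3 ranged from 1.02e-06 to 0.958 in Zmat3 -/- and from 0.000466 to 0.940 in TKO against wt mice.

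**Figure D3:**
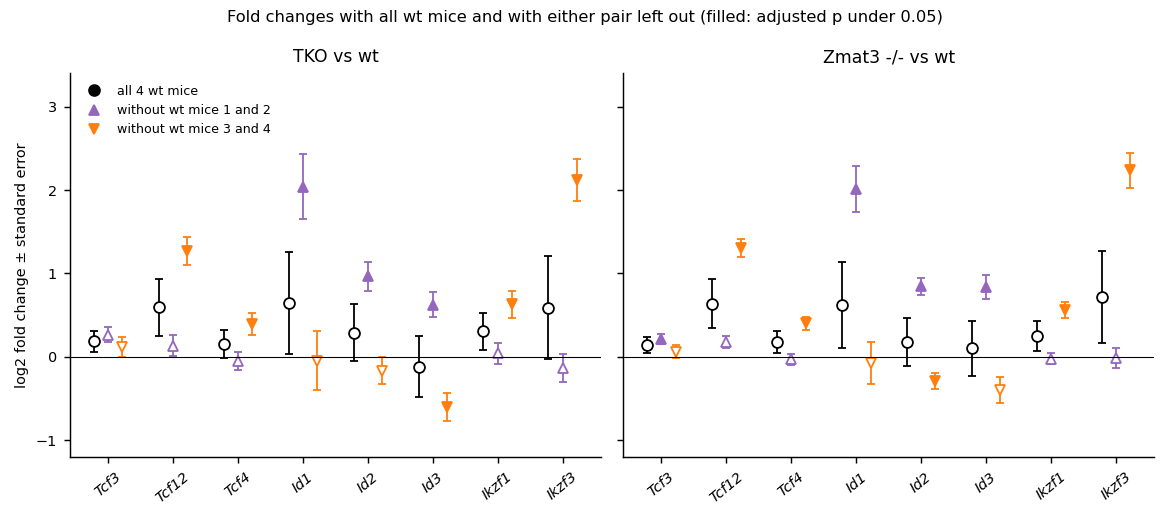
Log2 fold change with its standard error (vertical axis) of each gene against all 4 wt mice (circles), without wt mice 1 and 2 (upward triangles) and without wt mice 3 and 4 (downward triangles), with filled symbols for an adjusted p under 0.05. The Id genes are higher in both mutants against wt mice 3 and 4, and Tcf12, Tcf4, Ikzf1 and Ikzf3 against wt mice 1 and 2, which were set apart after the data were seen.

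Among wt mice a split by Xist level is the same split, since wt mice 1 and 2 are those with high Xist, so the values within each Xist level restate it and add no support. Among mice with high Xist, Zmat3 -/- mice (n = 2) differed from wt mice (n = 2) by 2.06 in mean log2 CPM for Ikzf3, 1.23 for Tcf12 and −0.50 for Id3. Among mice with low Xist (n = 2 and n = 2) the differences were 0.18 for Ikzf3, 0.25 for Tcf12 and 0.91 for Id3. With the Xist level as a covariate in edgeR, 0 of 8 genes were called in each comparison, where 0.392%, 1.22% and 0.206% of all genes were in TKO against wt, Zmat3 -/- against wt and TKO against Zmat3 -/- thymocytes. The study used surrogate variables, covariates computed from the counts themselves. With 1 of them in edgeR, 6 of 8 genes were called higher in Zmat3 -/- against wt thymocytes, where 21.9% of all genes were called higher and 37.8% in either direction. In TKO against wt thymocytes 4 of 8 were called higher, where 10.8% of all genes were called higher and 17.9% in either direction. The surrogate variable came from these same counts, so these calls are no separate support for a difference between genotypes. In TKO against Zmat3 -/- thymocytes 0 of 8 were called, against 0.267%. Ikzf3 (0.90 and 0.70), Id1 (1.19 and 1.26), Tcf12 (0.64 and 0.55) and Id2 (0.39 and 0.53) were called in both comparisons with wt (log2FC in Zmat3 -/- and in TKO mice), and Tcf3 (0.16) and Ikzf1 (0.22) in Zmat3 -/- against wt.

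The direction in which a gene differed between the wt pairs went with the length of its transcript. The 11624 protein-coding genes tested in every comparison were divided into 4 classes of about equal size by their longest annotated transcript, with bounds at 2259, 3422 and 4832 bp. In wt mouse 1 the median log2 CPM minus the mean over the 11 mice was 0.60 in the class with the shortest transcripts and −0.54 in that with the longest, and in wt mouse 2 it was 0.39 and −0.39. In wt mouse 3 these medians were −0.23 and 0.17 and in wt mouse 4 −0.25 and 0.17, while in the mutant mice they were −0.17 to 0.01 and 0.03 to 0.18. Wt mice 1 and 2 therefore had higher medians in the class with the shortest and lower medians in that with the longest transcripts than every other mouse. In each of these mice 76.3% of the genes had the sign of their class median.

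In the direction of their deviation, the 8 genes mostly went with their length classes: in the 4 wt mice, 31 of 32 values had the sign of the class median, as did 71.8% of the values of all protein-coding genes, and the exception was Tcf3 in wt mouse 2 (−0.10). These values share 1 mean and come from 2 pairs of like mice, so they are not separate observations and the count is no result about the 8 genes. In size they did not keep to it. Id1 (1160 bp), Id3 (1278 bp) and Id2 (1969 bp) are in the class with the shortest transcripts, and their log2 CPM in wt mouse 1 deviated from the 11-mouse mean by 0.74, 0.72 and 0.38. Id1 was at 0.04 in wt mouse 2 and at −1.59 and −1.61 in wt mice 3 and 4, where the median gene of its class was at 0.39, −0.23 and −0.25. Tcf3 (2950 bp) is in the next class and deviated by 0.05. Ikzf3 (4607 bp) deviated by −2.16 in wt mouse 1, Ikzf1 (5163 bp) by −0.58, Tcf12 (6299 bp) by −1.17 and Tcf4 (8577 bp) by −0.26. Ikzf3 and Tcf12 were thus farther below the mean than the median gene of their class (−0.11 and −0.54) and Tcf4 less far. The part of transcript length in the differences between genotypes was not tested.

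**Figure D4:**
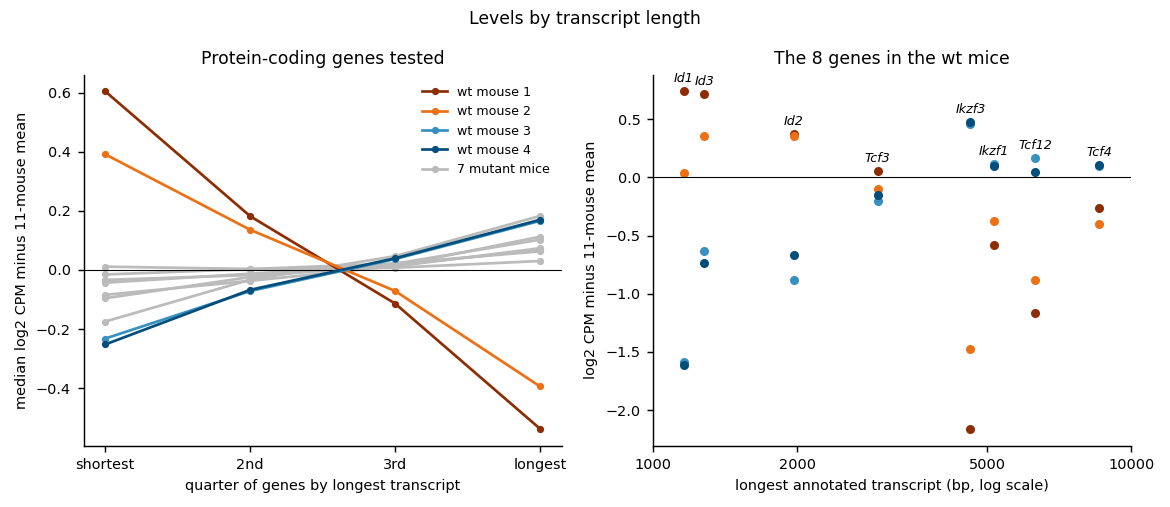
Left, median log2 CPM minus the 11-mouse mean (vertical axis) of protein-coding genes in 4 classes by longest transcript, 1 line per mouse, with the 7 mutant mice in grey. Right, the same deviation of the 8 genes in the 4 wt mice against their longest transcript (bp, log scale): the short Id transcripts are high in wt mouse 1 and low in wt mice 3 and 4, and Ikzf3 and Tcf12 the reverse.

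Markers of thymic cells also moved with the wt pairs, those of thymocytes included. Of the 10 thymocyte markers, 7 were higher in both wt mice 1 and 2 than in both wt mice 3 and 4, and 2 were lower. How many of all genes split so was not computed. The counts below thus describe the pairs and are no result about any cell type. The 8 markers of innate-like lymphocytes (Klrb1c, Nkg7, Zbtb16 and others), cells in which Id2 and Id3 act, summed to 143 and 107 CPM in wt mice 1 and 2, to 58.7 and 58.4 CPM in wt mice 3 and 4 and to 62.2 to 75.4 CPM in the mutants, with 5 of 8 above 1 CPM in every mouse. Gzma made up most of this sum, at 101, 65.6, 37.7 and 35.8 CPM in wt mice 1 to 4. Without it the sum was 41.9 and 41.8 CPM in wt mice 1 and 2, at most 22.6 CPM in wt mice 3 and 4 and 23.6 to 28.9 CPM in the mutants, and 7 of the 8 markers were higher in both wt mice 1 and 2 than in both others, the exception being Zbtb16 (0.681, 1.44, 1.79 and 1.12 CPM in wt mice 1 to 4). The 6 markers of plasmacytoid dendritic cells, which use Tcf4, summed to 473 and 409 CPM in wt mice 1 and 2, where Tcf4 was low, to 290.1 and 256 CPM in wt mice 3 and 4 and to 265 to 323 CPM in the mutants, with 5 of 6 above 1 CPM in every mouse. Ly6d made up most of it, at 419, 346, 252 and 210.2 CPM in wt mice 1 to 4. Without Ly6d the sum was 54.5, 63.6, 37.9 and 45.9 CPM in wt mice 1 to 4 and 38.6 to 60.1 CPM in the mutants, so that the ranges overlapped, although all 6 markers were higher in both wt mice 1 and 2 than in both others. The 9 B cell markers summed to 111 and 141 CPM in wt mice 1 and 2, to 68.0 and 81.7 CPM in wt mice 3 and 4 and to 57.8 to 97.0 CPM in the mutants, with 4 of 9 higher in both wt mice 1 and 2 than in both others. The 12 myeloid markers summed to 410.2 and 428 CPM in wt mice 1 and 2, to 238 and 217 CPM in wt mice 3 and 4 and to 161 to 474 CPM in the mutants, with 10 of 12 higher in both wt mice 1 and 2. The 8 thymic epithelial markers summed to 214 and 211 CPM, to 89.1 and 141 CPM and to 67.7 to 176 CPM in the same order, with 5 of 8 higher. The 6 erythroid markers went the other way, at 1099 and 883 CPM, 8769 and 2266 CPM and 1168 to 5797 CPM, with 5 of 6 lower.

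The sums of the remaining marker lists separated wt from either the Zmat3 -/- or the TKO mice, but not from both. The 7 fibroblast markers summed to 12.6 to 26.0 CPM in wt and 27.5 to 44.6 CPM in Zmat3 -/- mice, without overlap, and to 10.4 to 45.6 CPM in TKO mice. Without Dcn, the most abundant, the sum was 7.35 to 16.3 CPM in wt and 19.5 to 28.8 CPM in Zmat3 -/- mice, still without overlap. The 8 endothelial markers summed to 142 to 158 CPM in wt and 116 to 139.9 CPM in TKO mice, without overlap, and to 125 to 153 CPM in Zmat3 -/- mice. Pecam1 made up most of this sum. Without Pecam1 the sum was 12.2 to 20.4 CPM in wt and 12.4 to 16.8 CPM in TKO mice, so these ranges overlapped. No marker was at 0 in every mouse, no marker was called in any comparison, and their part in the levels of the 8 genes was not tested.

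The balance of Id to E protein transcripts differed most among wt mice. The summed level of Id1, Id2 and Id3 per summed level of Tcf3, Tcf4 and Tcf12, both as CPM per kb of merged exons, was 2.00, 1.72, 0.684 and 0.687 in wt mice 1 to 4. It was 1.00, 1.04, 0.973 and 1.35 in Zmat3 -/- mice 1 to 4 and 1.25, 1.07 and 0.741 in TKO mice 1 to 3. The 7 mutant mice lay between the wt pairs. With the longest transcript as length the ratio was lower in each mouse (1.69, 1.40, 0.504 and 0.512 in wt mice 1 to 4) and the order of the wt mice was the same. Id3 counts per Tcf12 count were 0.954 and 0.606 in wt mice 1 and 2 and 0.148 to 0.286 in the other 9 mice. The Id genes are in the class with the shortest transcripts, and Tcf12 and Tcf4 in that with the longest. Both ratios thus set genes of shorter transcripts against genes of longer ones, and the part of length in them was not tested.

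The partners, targets and inputs of these factors held no call in the pairwise edgeR fits either. Of 60 genes in 5 lists, 55 were tested, and 0 were called in each of the 3 comparisons. Id4, Tal1, Lmo1, Gfi1b and Smad6 were too low to be tested. At an unadjusted p under 0.05, 6 of 55 passed in TKO against wt, 6 of 55 in Zmat3 -/- against wt and 0 of 55 in TKO against Zmat3 -/- thymocytes, beside 10.3%, 16.1% and 4.5% of all genes. DESeq2 called 1 lower in TKO against wt, 1 higher and 4 lower in Zmat3 -/- against wt and 0 in TKO against Zmat3 -/- thymocytes, beside 2.87%, 8.04% and 0.556% of all genes. With all 3 genotypes in 1 edgeR fit, Egr2 was called lower in TKO against wt thymocytes (1.62% of all genes were called), and no other gene of the 55 in any comparison. With 1 surrogate variable 14 of 55 were called in TKO against wt (17.9% of all genes), 28 of 55 in Zmat3 -/- against wt (37.8%) and 0 of 55 between the mutants (0.267%). Without wt mice 1 and 2, 4 of 55 passed in TKO (8.15% of all genes) and 15 of 55 in Zmat3 -/- against wt (33%), and without wt mice 3 and 4 these counts were 24 of 55 (43.6%) and 37 of 55 (56.1%), with the same limit as for the 8 genes.

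Among inputs to the Id genes, 17 of 18 genes were tested. Egr2, a TCR-induced zinc finger activator of Id3, was at 20.8, 24.7, 18.9 and 20.1 CPM in wt mice 1 to 4, at 16.2, 12.5, 13.1 and 14.3 CPM in the Zmat3 -/- mice and at 12.4, 15.3 and 12.1 CPM in the TKO mice. All 7 mutant mice were below all wt mice, and wt mice 1 and 2 were just above wt mice 3 and 4. Egr1 was also lower without overlap (85.3 to 107 CPM in wt, 69.0 to 80.1 CPM in mutant mice). Srf was higher without overlap (42.2 to 51.8 and 55.2 to 70.6 CPM). In TKO against wt mice 2 of the 17 genes were lower and 3 higher without overlap, where 7.49% and 6.43% of all genes tested were. In Zmat3 -/- against wt mice 2 were lower and 1 higher, where 7.21% and 7.01% were. The log2FC of Egr2 was −0.67 in TKO (SE 0.160, edgeR adjusted p = 0.241) and −0.58 in Zmat3 -/- against wt mice (SE 0.127, edgeR adjusted p = 0.0856), and DESeq2 called it in both (adjusted p = 0.00677 and 0.00125). Without wt mice 1 and 2 the log2FC was −0.56 in TKO and −0.47 in Zmat3 -/- mice, and without wt mice 3 and 4 it was −0.78 and −0.70. The median log2FC of this list was 0.23 in TKO and 0.15 in Zmat3 -/- against wt mice, and it turned to −0.043 and −0.11 without wt mice 1 and 2 and was 0.50 and 0.35 without wt mice 3 and 4.

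Among target genes of E proteins, 6 of 7 were tested. Rag2, a subunit of the V(D)J recombinase, was at 191, 236, 225 and 217 CPM in wt mice 1 to 4, at 143, 158, 174 and 186 CPM in the Zmat3 -/- mice and at 192, 179 and 158 CPM in the TKO mice. The Zmat3 -/- mice were all below the wt mice, which held for 7.21% of all genes tested in that direction, and 14.2% did not overlap in either. Of the 55 genes tested in the 5 lists, 4 were lower and 4 higher without overlap in this comparison. The log2FC of Rag2 in Zmat3 -/- against wt mice was −0.39 (SE 0.121, adjusted p = 0.172 in edgeR and 0.0296 in DESeq2), and in TKO against wt mice it was −0.30 (adjusted p = 0.507 from edgeR). Without wt mice 1 and 2 it was −0.42 in Zmat3 -/- and −0.33 in TKO mice, and without wt mice 3 and 4 it was −0.37 and −0.27. Rag1, the other subunit, was picked out after its values were seen because it had the wt pattern of Tcf12, at 1633, 2249.6, 5401 and 5153 CPM in wt mice 1 to 4 and 3912 to 5557 CPM in the mutants. The median log2FC of this list was 0.04 in TKO and 0.02 in Zmat3 -/- against wt mice, and −0.050 and −0.16 without wt mice 1 and 2 and 0.12 and 0.08 without wt mice 3 and 4.

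In the other lists the genes with the smallest p were as follows. Of the E protein partners, 8 of 11 were tested, and Cbfa2t2, a corepressor of the ETO family, had a log2FC of 0.45 in TKO and 0.32 in Zmat3 -/- against wt mice (adjusted p = 0.478 and 0.305 from edgeR), which were 0.23 and 0.10 without wt mice 1 and 2 and 0.70 and 0.57 without wt mice 3 and 4. The median of this list was 0.21 in TKO and 0.28 in Zmat3 -/- against wt mice, 0.09 and −0.0092 without wt mice 1 and 2 and 0.25 and 0.41 without wt mice 3 and 4. Of the Ikaros relatives and NuRD or Sin3 subunits, all 18 were tested, with medians of 0.05 in both comparisons with wt, of 0.16 in TKO and 0.11 in Zmat3 -/- mice without wt mice 1 and 2, and of −0.07 and −0.10 without wt mice 3 and 4. Ikzf4, which encodes Eos, had a log2FC of −0.53 in TKO and −0.40 in Zmat3 -/- against wt mice (adjusted p = 0.453 and 0.301 from edgeR), and −0.60 and −0.46 without wt mice 1 and 2 and −0.47 and −0.35 without wt mice 3 and 4. Of the 6 Ikaros target genes, which include the Notch targets Hes1, Dtx1 and Nrarp, Cd8a had −0.21 in TKO (adjusted p = 0.640 from edgeR) and Cd8b1 −0.29 in Zmat3 -/- against wt mice (adjusted p = 0.323 from edgeR). Cd8a was at −0.24 without wt mice 1 and 2 and at −0.18 without wt mice 3 and 4, Cd8b1 was at −0.16 and −0.42, and Cd8b1 passed an adjusted p of 0.05 with 1 surrogate variable and without wt mice 3 and 4. The median of this list was −0.03 in TKO and −0.13 in Zmat3 -/- against wt mice, 0.17 and 0.12 without wt mice 1 and 2 and −0.21 and −0.23 without wt mice 3 and 4. In TKO against Zmat3 -/- mice the smallest p of each list belonged to Lmo2 (−0.44), Ptcra (0.23), Smad1 (0.21), Ikzf2 (−0.15) and Dtx1 (0.23), all with an adjusted p of 0.983 from edgeR. With 1 mouse left out Lmo2 ran from −0.67 to −0.10, Ptcra from 0.050 to 0.32 and Dtx1 from −0.0023 to 0.37.

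**Figure D5:**
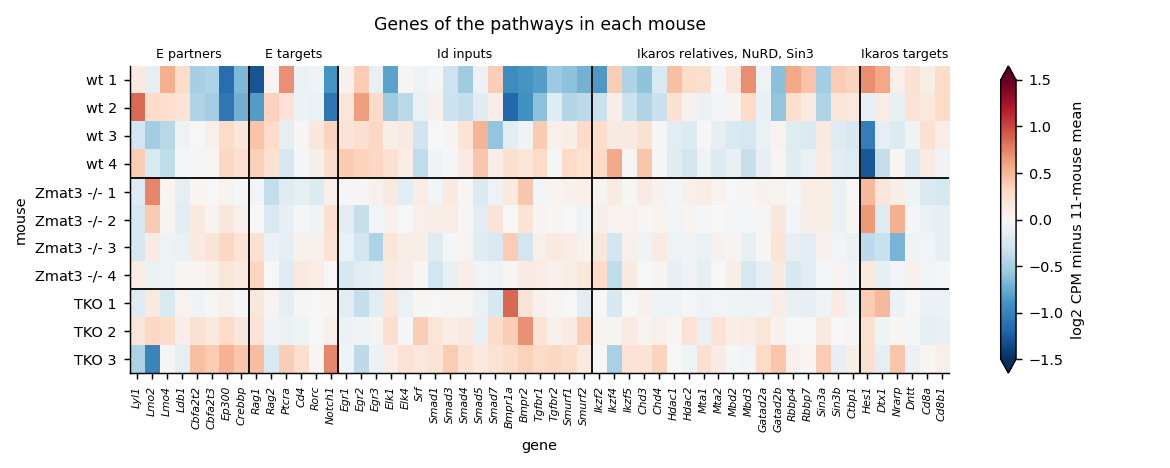
Log2 CPM minus the 11-mouse mean (colour, blue below and red above) of the 55 tested genes of the 5 lists from left to right, with 1 line per mouse and black lines between genotypes and between lists. Wt mice 1 and 2 carry many of the strongest colours. Egr1, Egr2 and Cd8a are lower and Srf is higher in every mutant mouse than in every wt mouse. Of all genes tested, 13.9% in TKO and 14.2% in Zmat3 -/- against wt mice had ranges without overlap.

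The genes whose pattern over the 11 mice was most like that of each member were found by Pearson's r of log2 CPM among 12957 genes tested in every comparison, as a description over mice that include both wt pairs. For Tcf12 they were Tbl1x (r = 0.996) and Twsg1 (0.994), for Ikzf3 Prr14l (0.996) and Kidins220 (0.994), and for Ikzf1 Atp8b2 (0.991) and Phf2 (0.991). For Id1 they were Atf4 (0.981) and Gm38043 (0.966), for Id2 Ccdc102a (0.966) and Klhdc8a (0.951), and for Id3 Ric8a (0.964) and Hist2h2aa1 (0.956). Tcf4 was most like Zfp281 (0.968) and Slc12a2 (0.959), and Tcf3 most like Uck2 (0.961) and Rnf10 (0.944). Without wt mice 1 and 2 these values were 0.687 to 0.980, and the lowest belonged to Slc12a2 with Tcf4, followed by Zfp281 with Tcf4 (0.859) and Kidins220 with Ikzf3 (0.881). Among the 8 genes themselves, Tcf12 and Ikzf3 had r = 0.978 over 11 mice and 0.823 over the 7 mutant mice, Ikzf1 and Ikzf3 had 0.961 and 0.738, and Id2 and Id3 had 0.873 and 0.608.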

How the data were processed

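RNA-seq libraries of thymocytes from 4 wt, 4 Zmat3 -/- and 3 TKO mice were analysed from 1 table of estimated counts per gene, which the authors deposited without normalization after running Salmon in nf-core/rnaseq on GRCm38.p6. All 598598 values were whole, so rounding changed none. The library kit keeps no strand. Genes were matched to GENCODE M21 by Ensembl identifier (54166 matched, 252 not), whereas the study used vM25. Groups and mouse numbers came from the sample titles.

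Each pair of genotypes was fitted in R 4.3.3 with edgeR 4.0.16 (TMM, two-sided quasi-likelihood F-test, Benjamini-Hochberg adjustment over all genes tested). A gene was tested if 20 or more counts, at the depth of the smallest library, were reached in a number of mice equal to that of the smaller genotype. Xist, chromosome Y, ribosomal RNA and immunoglobulin pseudogenes were left out, after the study. Single values were also compared by exact two-sided permutation tests of log2 CPM (prior count 2). Standard errors (SE) were derived from the log2FC and its F statistic. CPM used TMM factors over all 11 mice. A total of 17669715 counts, the smallest, is the depth that limits low genes.

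The 8 genes and the lists of related and marker genes were chosen with earlier results of these data known. Named genes were the 8, the targeted genes, per list and comparison the called genes or else the one with the smallest p, and the 2 genes most like each of the 8. Alternatives were DESeq2 1.42.0, RLE size factors, no filter, all genotypes in 1 fit, the mouse number as a block, the Xist level, 1 surrogate variable (sva 3.50.0), each mouse left out, the study's added limit of 1.5 on the absolute log2FC and, added after the data were seen, either pair of wt mice left out and marker sums without their most abundant gene. The study used DESeq2 with sex and surrogate variables. Mouse numbers, which nothing but the titles gives, went with a correlation of same-numbered deviations of 0.127 to 0.337 in all 4 pairs of Zmat3 -/- and wt mice, and of 0.0727 to 0.406 and 0.0114 to 0.194 in the 3 pairs of TKO with wt and with Zmat3 -/- mice. Mice with different numbers correlated as much (Zmat3 -/- mouse 1 with wt mouse 2, 0.377, and Zmat3 -/- mouse 4 with wt mouse 3, 0.245), and in that comparison the correlations below 0 were all between mice 1 or 2 and mice 3 or 4, so the values follow these pairs of numbers and not the single number. The scripts were tested on simulated counts.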

Additional observations from a re-analysis of the deposited data

Results flagged for a closer look

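Id3 in Zmat3 -/- mouse 4, at 159 CPM, stood apart from the other 3 mice of its genotype (113, 114 and 106 CPM) by Dixon's gap test, with a gap of 0.852 of the group's range against a critical value of 0.829. It was 1 of 16 groups of 4 mice examined, and chance alone gives about 1 such group in 20. Without this mouse the log2FC of Id3 in Zmat3 -/- against wt thymocytes was −0.05 in place of 0.10, and neither was called.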

How the results depend on the processing

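No gene of the 8 was called in TKO against Zmat3 -/- mice under any alternative. In both comparisons with wt, calls appeared under 1 surrogate variable and with either pair of wt mice left out, and under no other alternative. With 1 surrogate variable 4 of 8 genes were called in TKO against wt (17.9% of all genes): Tcf12 0.55, Id1 1.26, Id2 0.53 and Ikzf3 0.70, and Id3 turned to 0.17. In Zmat3 -/- against wt 6 of 8 were called (37.8% of all genes): Tcf3 0.16, Tcf12 0.64, Id1 1.19, Id2 0.39, Ikzf1 0.22 and Ikzf3 0.90. Ikzf1 turned to −0.021 in TKO against Zmat3 -/-. With the Xist level, Id3 was 0.13 in TKO against wt and Id1 was −0.0041 in TKO against Zmat3 -/- mice.

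Without wt mice 1 and 2, 3 genes passed in TKO (Id1 2.04, Id2 0.96, Id3 0.63) and 4 in Zmat3 -/- against wt (Tcf3 0.22, Id1 2.01, Id2 0.85, Id3 0.83), and the sign turned for Tcf4 (−0.045, −0.029) and Ikzf3 (−0.13, −0.011) in TKO and Zmat3 -/- and for Ikzf1 in Zmat3 -/- against wt (−0.021), as well as for Id3 in TKO, given above. Without wt mice 3 and 4, 5 passed in each (Tcf4 0.40, Tcf12 1.27, Ikzf1 0.63, Ikzf3 2.12 and Id3 −0.60 in TKO; Tcf4 0.40, Tcf12 1.30, Ikzf1 0.56, Ikzf3 2.23 and Id2 −0.29 in Zmat3 -/-), and Id1 (−0.043, −0.071), Id2 (−0.16, −0.29) and, in Zmat3 -/-, Id3 (−0.40) turned. The cause was not tested.

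With each mouse left out in turn, 0 of 8 were called throughout, but in both comparisons with wt the highest log2FC of a gene was over 1.5 times its lowest, with ranges of 0.38 to 1.22 in TKO and 0.35 to 1.19 in Zmat3 -/- for Id1, 0.28 to 0.95 and 0.40 to 1.07 for Ikzf3 and 0.40 to 0.82 and 0.44 to 0.87 for Tcf12. In the same order they were 0.15 to 0.26 and 0.11 to 0.19 for Tcf3, 0.069 to 0.25 and 0.084 to 0.25 for Tcf4 and 0.18 to 0.41 and 0.13 to 0.35 for Ikzf1, and 0.10 to 0.48 for Id2 in TKO against wt. The log2FC of Id3 ranged from −0.30 to 0.19 in TKO and −0.087 to 0.40 in Zmat3 -/- against wt, and that of Id2 from −0.0059 to 0.37 in Zmat3 -/- against wt. In TKO against Zmat3 -/- mice the ranges were −0.091 to 0.035 for Tcf4, −0.17 to 0.019 for Tcf12, −0.24 to 0.23 for Id1, −0.058 to 0.13 for Ikzf1, −0.30 to 0.026 for Ikzf3 and −0.0023 to 0.37 for Dtx1. There Tcf3 (0.011 to 0.085), Id2 (0.020 to 0.28) and Id3 (−0.36 to −0.061) kept their sign. With the longest transcript as length, levels moved to 74.5 (Tcf3), 5.55 (Tcf4), 71.8 (Tcf12), 90.7 (Id3) and 53.7 (Ikzf3) CPM per kb.

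With the replicate number as a block, 0 of 8 genes were called in each comparison and no other call among them changed. Ikzf3 was then 1.37 in TKO (adjusted p = 0.305) and 1.12 in Zmat3 -/- against wt mice (adjusted p = 0.315, edgeR), and the calls over all genes went from 39 to 16, from 103 to 12 and from 29 to 21 in the 3 comparisons. DESeq2 called 381, 1085 and 73 genes there, and no filter on low counts 61, 55 and 90. Depth limits Id1, with 23 and 24 counts in wt mice 3 and 4.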
